A study of Mus musculus with 8 samples.

Results

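The tumour suppressor p53 is a transcription factor that responds to DNA damage and other stress. It was followed here through the RNA of its own gene, Trp53, of Mdm2, and of 8 genes listed here as its targets. These are Perp, Bbc3, Bax, Ccng1, Ccng2, Sesn1, Sesn2 and Zmat3. The 10 genes were taken by name from a table of 31723 genes, and all 10 were found and tested. p53 protein is made continuously and is destroyed with the help of MDM2, a ubiquitin ligase whose gene p53 itself activates, so that p53 activity is controlled largely at the level of the protein. Active p53 binds pairs of a short DNA element near its targets and turns on genes that arrest the cell cycle, trigger apoptosis or restrain growth signalling. In muscle stem cells, which are quiescent for most of their life, p53 is known for its part in survival when the cells are activated. Several of the targets also answer to other factors: Ccng2 and Sesn1 to FoxO factors and Sesn2 to ATF4, the factor of the amino acid and stress response.

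RNA was sequenced from muscle stem cells that had been sorted out of C57BL/6 wild-type hindlimb muscle. Young mice were 3 months old and old mice 20 months, each age gave 4 libraries, and no agent was applied. RNA came from 200000 cells in each case, and libraries were built from 150 pg of amplified cDNA. Whether mice were pooled for a library is not given in the labels, and p-values measure only the spread between these samples, which may be technical. Values are normalized counts, reads divided by a size factor of the library. Levels are means ± SD over the 4 libraries of an age, and each log2 fold change (old over young, ± SE) is on the log2(normalized count + 1) scale, where changes of low genes come out too small. The test was limma with Benjamini-Hochberg adjustment over 14822 genes and a threshold of 0.05.

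Between 19.04 and 34.68 M reads were assigned to genes in a library. All 12 muscle stem cell markers listed were above 0 in every library, and Pax7, the transcription factor that defines these cells, was at 2441 ± 419 in young against 2749 ± 493 in old. Of the 12, 3 fell and 0 rose, where 1.88% of all tested genes fell and 3.34% rose. By unadjusted p under 0.05, 4 of the 12 were lower and 2 higher, beside 1195 lower and 1888 higher of all 14822 tested genes. Markers of other cells of muscle were present too. The summed level of 12 fibro-adipogenic and tendon markers ran from 85594 to 147969 normalized counts in young and from 116968 to 353795 in old. Of these markers 5 were higher in old and 0 lower, with 7 higher and 1 lower by unadjusted p under 0.05. The sum for 8 endothelial markers ran from 17214 to 61959 in young and from 20052 to 51376 in old. Both highest sums were in library 3 of their age, with at most 32401 in the other young and 23901 in the other old libraries. None of the 8 was past the limma threshold, 0 by unadjusted p under 0.05, and likewise 0 in edgeR or DESeq2. The sum for 14 genes induced by tissue dissociation ran from 476623 to 602673 in young and from 582314 to 717864 in old. Of these genes 1 rose and 0 fell, with 6 higher and 0 lower by unadjusted p under 0.05. None of the marker genes in these lists was at 0. In bulk RNA a change in the number of cells of a type and a change in RNA per cell cannot be told apart. A second model held the mean log2 level of the fibroblast and tendon markers as a covariate, and its value stands beside each of the 10 genes and each other gene that passed. That covariate itself rose with age, from a mean of 10.81 in young to 12.16 in old. Age and these markers can therefore not be fully separated in that model, which had 3 genes higher and 0 lower over all genes. A call lost in it cannot be assigned to the markers or to age. The part of these markers in the results was not tested.

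Promoter sequences are shown first because the genes share a regulator. RefSeq promoter windows of the GRCm38.p6 assembly, 250 bases before to 50 bases after a gene's start, were found for 8 of the 10 genes (11 windows, as Bbc3 has 3 starts and Sesn1 has 2). Perp and Zmat3 had no window and were not searched. The windows were searched for the p53 decamer, the consensus of 10 bases that is repeated in a p53 response element and reads alike on both strands. It was found in 5 of the 11 windows, 1 each of Trp53, Mdm2, Bax, Ccng1 and Sesn1, and in 8.36% of all 32851 windows. A match is a description of the letters and not a site. The stretches below, all on the gene's strand and all before its start, have the decamer in capitals. Cdkn1a, the p53 target that encodes the cell cycle inhibitor p21, is added for comparison and has 2 matches in 1 of its 2 windows.
Trp53 (chr11:69580259-69580318, plus strand): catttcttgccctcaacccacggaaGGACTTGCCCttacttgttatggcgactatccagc
Mdm2 (chr10:117710910-117710969, minus strand): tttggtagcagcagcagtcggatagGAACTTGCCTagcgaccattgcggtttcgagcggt
Bax (chr7:45467065-45467124, minus strand): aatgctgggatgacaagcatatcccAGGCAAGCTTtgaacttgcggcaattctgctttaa
Ccng1 (chr11:40755437-40755496, minus strand): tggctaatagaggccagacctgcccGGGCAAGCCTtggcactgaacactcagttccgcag
Sesn1 (chr10:41887241-41887300, plus strand): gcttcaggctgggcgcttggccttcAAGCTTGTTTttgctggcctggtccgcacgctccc
Cdkn1a (chr17:29090881-29090962, plus strand): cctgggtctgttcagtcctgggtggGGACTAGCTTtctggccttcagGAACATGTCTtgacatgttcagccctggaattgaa

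Sesn2 and Ccng2, lower in old cells below, had no decamer in their windows, which says only that these letters are not there. Their 250 bases before the start are given in full.
Sesn2 (chr4:132510457-132510706, minus strand): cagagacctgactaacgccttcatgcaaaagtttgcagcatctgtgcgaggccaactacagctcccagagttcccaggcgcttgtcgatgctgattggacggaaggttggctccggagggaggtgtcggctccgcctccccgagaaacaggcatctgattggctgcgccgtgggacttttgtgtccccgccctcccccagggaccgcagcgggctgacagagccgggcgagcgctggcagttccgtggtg
Ccng2 (chr5:93267323-93267572, plus strand): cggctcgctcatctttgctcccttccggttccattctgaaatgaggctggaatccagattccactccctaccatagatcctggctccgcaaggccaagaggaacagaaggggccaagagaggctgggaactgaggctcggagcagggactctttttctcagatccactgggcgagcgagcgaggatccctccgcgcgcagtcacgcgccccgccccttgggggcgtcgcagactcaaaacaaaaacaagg
The ATF4 composite site, searched as TGATGNAA on both strands, was in 0 of the 11 windows and in 3.97% of all windows. The FoxO site, searched as GTAAACA on both strands, was in 3 of the 11, 1 each of Bbc3, Mdm2 and Sesn1, and in 3.65% of all windows. No match of any of the 3 motifs overlapped another in these windows.

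Of the 10 genes, Perp rose and Sesn2 and Ccng2 fell in old cells, while Trp53 and Mdm2 did not pass the test. Over all tested genes 5.22% passed, 3.34% higher and 1.88% lower. By the spread of the libraries alone, the young and old values of 4 of the 10 did not overlap, Perp and Ccng1 being higher in old and Sesn2 and Ccng2 lower, against 13.4% of all tested genes (7.99% higher and 5.46% lower). The median change of the 10 was -0.11, beside 0.045 for all tested genes. EdgeR on recovered reads passed 4 of the 10, adding Bbc3 as lower (4.77% of all genes), and DESeq2 passed 5, adding Bbc3 as lower and Ccng1 as higher (9.24%). The target genes therefore did not move in 1 direction under any of the 3 tools.

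**Figure D1:**
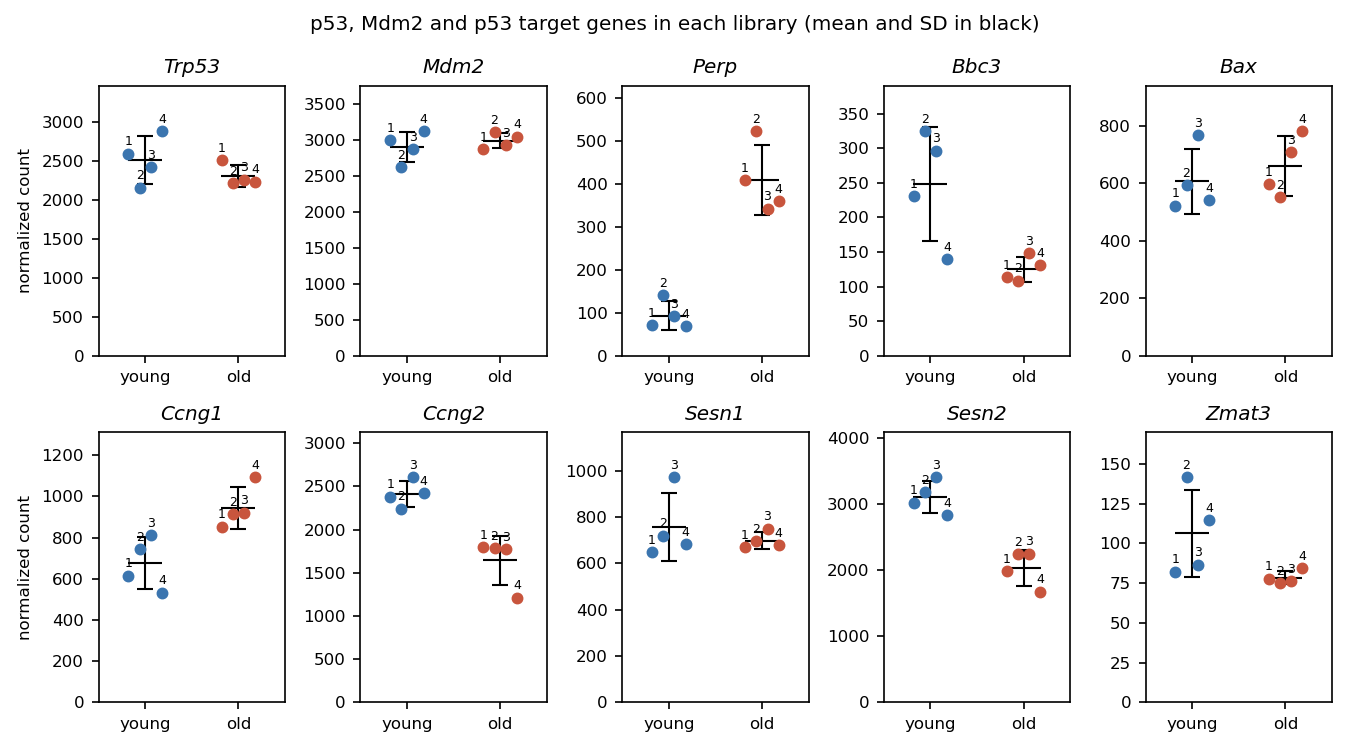
Normalized count (vertical axes, each from 0) of each of the 10 genes in the 4 young and 4 old libraries. Points are libraries with their number, and black marks are the mean and SD. Perp, Ccng1, Ccng2 and Sesn2 separate the ages fully, while Trp53 and Mdm2 overlap between ages.

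Trp53, the gene of p53 itself, had 2595, 2159, 2425 and 2886 normalized counts in young libraries 1 to 4, and 2515, 2218, 2261 and 2236 in old libraries 1 to 4. The old values all lay within the range of the young ones. The means were 2516 ± 305 and 2308 ± 139, with a log2 fold change of -0.12 ± 0.10 (95% interval -0.34 to 0.10, limma adjusted p = 0.558). With the fibroblast and tendon marker covariate the value was 0.022 ± 0.16 (limma adjusted p = 0.977).

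Mdm2, the ubiquitin ligase that marks p53 for destruction, had 2993, 2623, 2867 and 3123 normalized counts in the young libraries and 2869, 3103, 2930.0 and 3043 in the old. All old libraries lay within the range of the young ones. The means were 2901 ± 213 and 2986 ± 106, the smallest log2 difference of the 10 genes. Its log2 fold change was 0.044 ± 0.081 (95% interval -0.14 to 0.22, limma adjusted p = 0.814), and -0.0034 without young library 2. The value with the marker covariate was 0.066 ± 0.14.

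Perp encodes a tetraspan membrane protein known as an effector of p53-dependent apoptosis and as a part of desmosomes in epithelia. Its values were 72.1, 141, 92.4 and 68.6 normalized counts in the young libraries and 408, 523, 342 and 360 in the old. The lowest old library stood well above the highest young one, young library 2. Perp rose 4.37-fold from 93.4 ± 33.1 to 408 ± 81.4, a log2 fold change of 2.16 ± 0.24 (limma adjusted p = 0.0017). The call held without each library in turn, with values from 2.03 to 2.37, and with edgeR (adjusted p = 0.00258) and DESeq2 (adjusted p = 7.74e-14). With the fibroblast and tendon marker covariate it was at 1.59 ± 0.35 and no longer passed (limma adjusted p = 0.187).

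The apoptosis genes of the BCL2 family did not pass the limma test. Bbc3 encodes PUMA, which frees the death effectors from their inhibitors. It had 231, 325, 296 and 139.6 normalized counts in the young libraries and 114, 109, 148 and 131 in the old. Old library 3 lay just above young library 4, and the other young libraries stood above all old ones. The means were 248 ± 82.2 and 125 ± 18, with a log2 fold change of -0.92 ± 0.26 (95% interval -1.49 to -0.34, limma adjusted p = 0.0714). The adjusted p was 0.0459 with edgeR and 0.00304 with DESeq2, and in limma it was 0.0188 without young library 4 (-1.17) and 0.0213 under quantile normalization (-1.12). With the marker covariate the value was -0.96 ± 0.44.

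Bax encodes a death effector that opens the outer mitochondrial membrane. Its values were 522, 595, 768 and 542 normalized counts in the young libraries and 596, 552, 707 and 782 in the old, so that the ages overlapped over most of their range. The log2 fold change was 0.12 ± 0.16 (95% interval -0.22 to 0.47, limma adjusted p = 0.713), and 0.28 ± 0.26 with the marker covariate.

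Ccng1 and Ccng2 encode cyclins G1 and G2, atypical cyclins that are linked to cell cycle arrest, and cyclin G1 also acts on MDM2 through a phosphatase. Ccng2 had 2382, 2240, 2602 and 2422 normalized counts in the young libraries and 1796, 1786, 1773 and 1213 in the old. Every old library was below every young one, and old library 4 stood far below the other old ones. Ccng2 fell from 2411 ± 149 to 1642 ± 286, by 0.57 ± 0.13 on the log2 scale (limma adjusted p = 0.0346). Its call was lost without any of young libraries 1 to 4, old library 1 or old library 2, with adjusted p from 0.0528 to 0.0878, while the value stayed between -0.62 and -0.43. With the marker covariate it was -0.35 ± 0.21 (limma adjusted p = 0.65).

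Ccng1 lay the other way, with 614, 745, 812 and 532 normalized counts in the young libraries and 853, 914, 921 and 1091 in the old. The ages did not overlap, and the widest gap was between young library 4, the lowest, and old library 4, the highest. The means were 676 ± 126 and 945 ± 102, with a log2 fold change of 0.50 ± 0.14 (95% interval 0.18 to 0.82), which did not pass (limma adjusted p = 0.0791). It passed without young library 3 (0.59, limma adjusted p = 0.0401) and with DESeq2 (adjusted p = 0.0432). Its value was 0.37 ± 0.24 with the marker covariate.

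Sestrins restrain the growth kinase complex mTORC1, with sestrin 2 known as a leucine sensor. Sesn2 had 3015, 3180 and 3398 normalized counts in young libraries 1 to 3 and 2826 in young library 4. In the old libraries it had 1986, 2242, 2247 and 1672. All 4 old libraries were below all 4 young ones. Sesn2 fell from 3105 ± 243 to 2037 ± 272, by 0.61 ± 0.11 on the log2 scale (limma adjusted p = 0.0133), and it passed without each library in turn, with values from -0.67 to -0.52. With the marker covariate it was -0.52 ± 0.19 and did not pass (limma adjusted p = 0.464).

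Sesn1, the sestrin most tied to p53 and FoxO, had 649, 719.9, 971 and 683 normalized counts in the young libraries and 670.1, 695, 750.2 and 680.1 in the old. Young library 3 stood above all others, and the remaining 7 libraries overlapped. The log2 fold change was -0.095 ± 0.13 (95% interval -0.39 to 0.20, limma adjusted p = 0.744), and 0.031 without young library 3. It was at 0.069 ± 0.22 with the marker covariate.

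Zmat3 encodes a zinc finger RNA-binding protein that acts in splicing downstream of p53. Over all 8 libraries it was the least abundant of the 10 genes. It had 82.3, 142, 86.8 and 115 normalized counts in the young libraries and 77.9, 75.2, 76.2 and 84.4 in the old. The old values lay close together, below all but young library 1, which old library 4 passed. The log2 fold change was -0.40 ± 0.22 (95% interval -0.89 to 0.086, limma adjusted p = 0.339), and -0.65 ± 0.37 with the marker covariate.

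**Figure D2:**
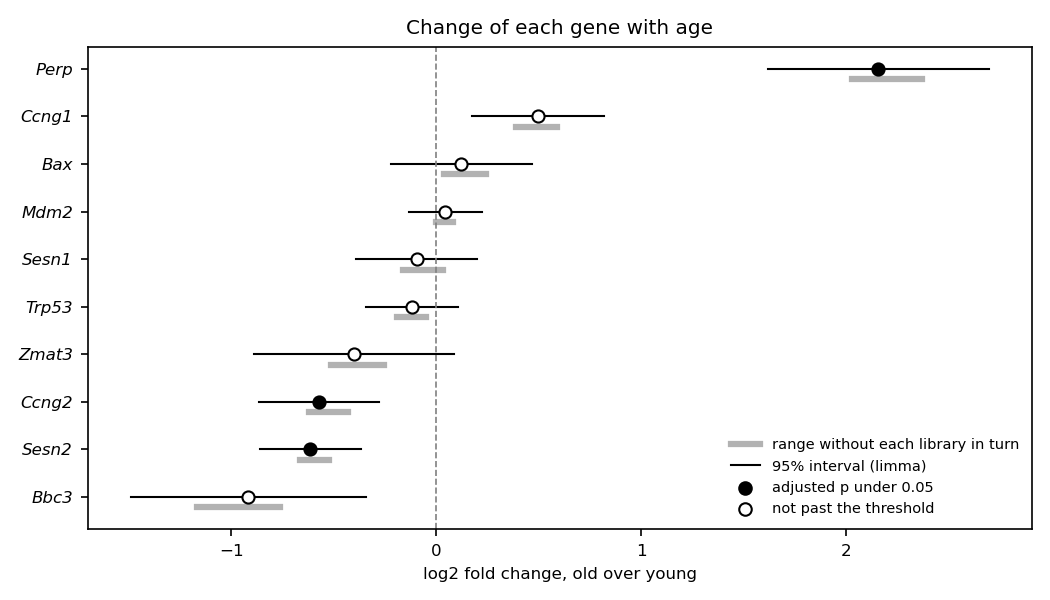
Log2 fold change (old over young, horizontal axis) of each gene. Circles are limma estimates, filled where the adjusted p was under 0.05, black lines their 95% intervals, and grey bars the range of estimates without each library in turn. Perp stands apart at 2.16, and the intervals of Trp53, Mdm2, Bax, Sesn1 and Zmat3 include 0.

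Levels of different genes were compared per kilobase of exon sequence (GENCODE M21, all exons of a gene joined), over all 8 libraries. On that scale Sesn2 had 740 normalized counts per kb, Trp53 596, Mdm2 579, Bax 402 and Ccng2 371. Ccng1 had 231, Sesn1 183, Perp 129, Bbc3 87.9 and Zmat3 8.08. The genes lowest in counts, Perp, Bbc3 and Zmat3, were also the most variable between young libraries, with coefficients of variation of 35.5%, 33.2% and 25.9%, against 6.19% to 19.4% for the other 7. Among old libraries the range was 3.56% (Mdm2) to 19.9% (Perp).

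Related genes were then compared within each library, as the log2 ratio of their normalized counts, in 4 pairs. The pairs were picked with the direction of single genes already known. Ccng1 and Ccng2 separate the ages in opposite directions by themselves, and Sesn2 separates them alone, so the ratios are a description with no test. Because a ratio is taken within a library, it does not depend on the size factors, apart from the pseudocount. The log2 ratio of Sesn1 over Sesn2 was -2.21, -2.14, -1.81 and -2.05 in the young libraries and -1.57, -1.69, -1.58 and -1.30 in the old. All old libraries were above all young ones, with a difference of 0.52 ± 0.12 (SE).

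The Ccng1 over Ccng2 log2 ratio was -1.95, -1.59, -1.68 and -2.18 in the young libraries and -1.07, -0.97, -0.94 and -0.15 in the old, again without overlap. The difference was 1.07 ± 0.25, and 0.86 without old library 4, whose ratio stood apart. The Bbc3 over Bax log2 ratio was -1.17, -0.87, -1.37 and -1.95 in the young libraries and -2.38, -2.33, -2.25 and -2.56 in the old. Every old library was lower, with a difference of -1.04 ± 0.24. The Mdm2 over Trp53 log2 ratio was 0.21 ± 0.071 in young and 0.37 ± 0.13 in old, with overlapping libraries and a difference of 0.16 ± 0.074.

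**Figure D3:**
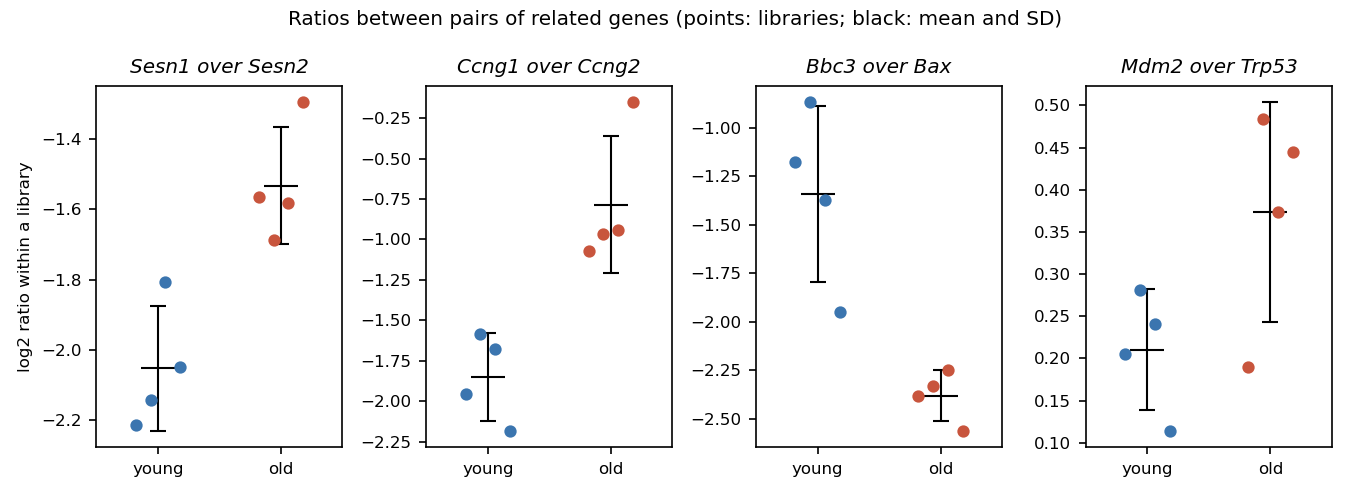
Log2 ratio of normalized counts within each library (vertical axes, not starting at 0) for the 4 pairs, by age. Points are libraries and black marks the mean and SD. The old libraries lie above the young ones for both family pairs, Sesn1 over Sesn2 and Ccng1 over Ccng2, and below them for Bbc3 over Bax, while Mdm2 over Trp53 overlaps.

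Around these genes, the p53 family and its regulators did not pass the limma test. Of 22 such genes 20 were tested and 0 passed. By unadjusted p under 0.05, 0 were higher and 3 lower, beside 1888 higher and 1195 lower of all 14822 tested genes. EdgeR passed 0 of them and DESeq2 passed 1. That gene was Ube4b, a ubiquitin ligase that acts on p53 (-0.34 ± 0.11, DESeq2 adjusted p = 0.0358, limma adjusted p = 0.114). The other genes with the smallest p were the p53 kinase gene Hipk2 (-0.36 ± 0.15, limma adjusted p = 0.205) and Rpl11, a ribosomal protein that restrains MDM2 (-0.31 ± 0.14, limma adjusted p = 0.227), whose reads may be shared with near-identical copies. Mdm4, the partner of MDM2 that blocks the activation domain of p53, was at 2168 ± 96.9 in young and 1911 ± 139 in old (-0.18 ± 0.083, limma adjusted p = 0.242). Atm, the kinase that signals DNA breaks to p53, was at -0.15 ± 0.19. Of the other family members, Trp63 had 38.7 ± 16.3 and 45.4 ± 21.1 normalized counts. Trp73 was too low to test, with 0 to 5.78 in a library, as was Cdkn2a, which encodes the cell cycle inhibitor p16 and the MDM2 inhibitor ARF, with 1.90 to 4.23 in young and 0 to 9.38 in old.

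Of 41 other p53 targets listed, 39 were tested, 2 rose and 1 fell, which is near the background of 3.34% higher and 1.88% lower over all tested genes. By unadjusted p under 0.05, 6 were higher and 2 lower, beside 1888 higher and 1195 lower of all 14822 tested genes. Without overlap between ages, 4 were higher and 2 lower, beside 7.99% and 5.46% of all tested genes. The median change was 0.13, and 0.083 under quantile normalization. Cdkn1a was far more abundant than any of the 10 genes and fell from 18233 ± 2384 to 11248 ± 2169 normalized counts, by 0.71 ± 0.15 on the log2 scale (limma adjusted p = 0.0244), with no overlap between ages. It lost its call without young library 1, young library 4 or old library 2 (adjusted p from 0.0515 to 0.0665), and with the marker covariate it was at -0.36 ± 0.21. Dram1, a lysosomal membrane protein linked to autophagy, rose from 536 ± 92.4 to 857 ± 59.8 (0.69 ± 0.13, limma adjusted p = 0.015), and was just outside the threshold without old library 4 (adjusted p = 0.0506). Its value with the marker covariate was 0.69 ± 0.22. Steap3, a ferrireductase of iron uptake, rose from 106 ± 32.5 to 285 ± 103 (1.39 ± 0.29, limma adjusted p = 0.0246). Its call was lost without young library 1, young library 4, old library 1, old library 2 or old library 4 (adjusted p from 0.0566 to 0.0717), and with the marker covariate it was at 0.52 ± 0.36. Among the classical targets that did not pass, Gadd45a had 9030 ± 760 and 10573 ± 632 normalized counts (0.23 ± 0.087), Pmaip1, which encodes the BCL2-family protein NOXA, was at -0.29 ± 0.14, and Trp53inp1 was at -0.058 ± 0.16. Phlda3, a repressor of AKT, was named after its values were seen. It was at 0.63 ± 0.17 with no overlap between ages (limma adjusted p = 0.058, DESeq2 adjusted p = 0.0161).

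The rest of the apoptosis machinery did not pass in limma. Of 19 genes of the BCL2 family and caspase activation 16 were tested and 0 passed. By unadjusted p under 0.05, 0 were higher and 1 lower, beside 1888 higher and 1195 lower of all 14822 tested genes. EdgeR passed 1 as lower, as did DESeq2. The survival genes Bcl2 and Bcl2l1 were at 0.16 ± 0.15 and 0.38 ± 0.26. Bak1, which encodes another death effector, was too low to test (0 to 7.05 normalized counts in a library). The median of the list was -0.13.

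Sesn2 was next set beside the pathway that sestrins act on and the other factors that drive these genes. The sestrin pathway list held genes of amino acid sensing and mTORC1 control, together with Sesn3, Keap1 and Sqstm1. Of its 22 tested genes 0 passed in limma, 0 in edgeR and 1 as lower in DESeq2. By unadjusted p under 0.05, 2 were higher and 4 lower, beside 1888 higher and 1195 lower of all 14822 tested genes. The median of the list was 0.11, and -0.011 under quantile normalization. Sesn3, the third sestrin and a FoxO target, had 253 ± 46.0 and 209 ± 27.0 normalized counts (-0.26 ± 0.17, limma adjusted p = 0.418). Bmt2, the S-adenosylmethionine sensor of this pathway, named after its values were seen, was at -0.051 ± 0.11. Of 17 FoxO factors and targets 0 passed in limma, 0 in edgeR and 2 as higher in DESeq2. By unadjusted p under 0.05, 4 of the 17 were higher and 1 lower, beside the same counts for all tested genes. The median was 0.18, and 0.015 under quantile normalization. Ccng2, which fell, is itself a FoxO target outside that list.

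The ATF4 list lay lower. Of 16 ATF4 factors and targets 5 fell and none rose, beside 1.88% of all tested genes lower, and the median was -0.50. Of the 16, 8 had old libraries all below the young ones, beside 5.46% of all tested genes. The genes that fell were Mthfd2 of the mitochondrial folate pathway (1690.4 ± 144 to 765 ± 72.4, -1.14 ± 0.10, limma adjusted p = 5.62e-04), the glutathione-degrading enzyme gene Chac1 (-1.04 ± 0.24, adjusted p = 0.0333) and the serine synthesis gene Psat1 (-0.70 ± 0.15, adjusted p = 0.0276). The lipoprotein receptor gene Vldlr (-0.53 ± 0.11, adjusted p = 0.0261) and the alanyl-tRNA synthetase gene Aars (-0.49 ± 0.10, adjusted p = 0.0236) fell too. The RNA of Atf4 itself, named after its values were seen, was at -0.013 ± 0.087. By unadjusted p under 0.05, 1 of the 16 was higher and 9 lower, beside 1888 higher and 1195 lower of all 14822 tested genes. The 4 genes of the list above 0, named after their values were seen, were Nupr1 (0.30 ± 0.11, limma adjusted p = 0.155), Asns (0.057 ± 0.26), Shmt2 (0.026 ± 0.098) and Ddit3 (0.023 ± 0.12). Mthfd2 passed without each library in turn. Chac1 passed without young library 1 or old library 3 and was lost without any other library. Psat1 was lost without young library 1, young library 2, old library 1 or old library 2, and Vldlr without young library 4, old library 1 or old library 2. Aars was lost without young library 1, young library 4, old library 1, old library 3 or old library 4. With the marker covariate none of the 5 passed, at -1.03 ± 0.17 (Mthfd2), -0.75 ± 0.39 (Chac1), -0.58 ± 0.26 (Psat1), -0.50 ± 0.20 (Vldlr) and -0.65 ± 0.17 (Aars). These lists were made with earlier results on the same libraries known, and the serine and folate genes among them had already been seen to fall.

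**Figure D4:**
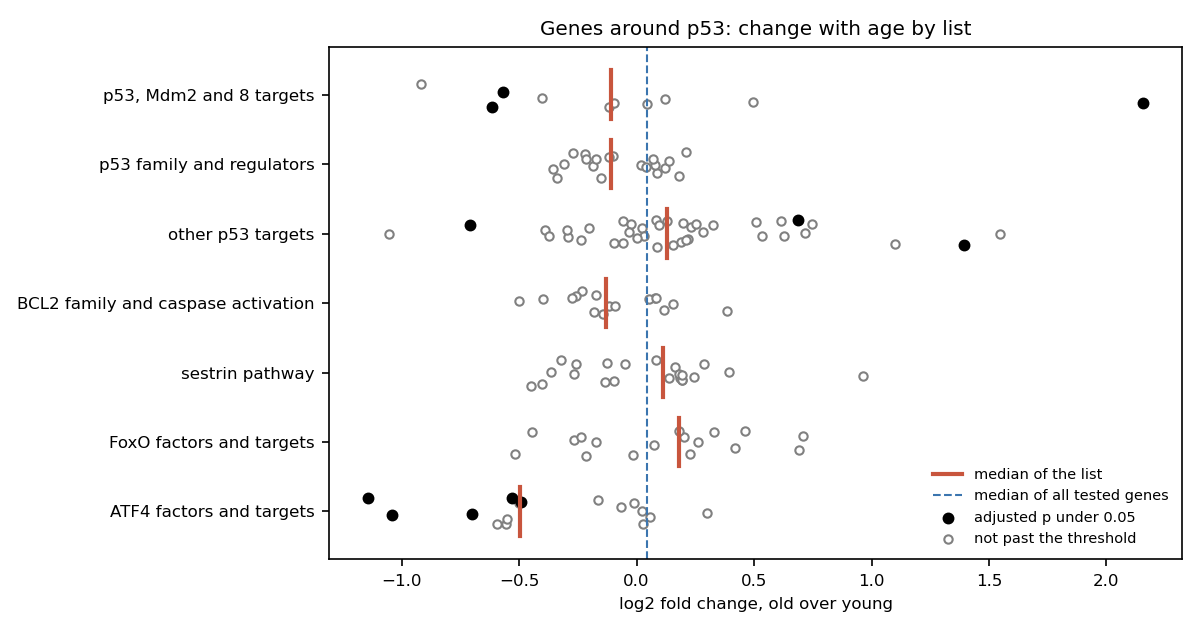
Log2 fold change (old over young, horizontal axis) of every tested gene in 7 lists. Filled points had a limma adjusted p under 0.05, red bars are list medians, and the dashed line is the median of all tested genes (0.045). The ATF4 list has its median at -0.50 and 5 filled points, all below 0, while the lists of p53 regulators, the BCL2 family, sestrin pathway and FoxO have no filled point.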

How the data were processed

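The deposited file gave a signal per gene and library, which its name calls normalized counts. Tools listed in the submitters' processing notes are STAR, DESeq2, featureCounts, Subread 1.5.1 and Trim Galore 0.4.2, with the builds mm10 and GRCm39 and no role for either. Strandedness is not stated, so reads of overlapping genes may not be separable. Dividing each column by its smallest value above 0 (0.60 to 1.07) returned whole reads, within 0.01, for at least 99.97% of values above 0. The labels mention no molecular identifiers, so amplified copies may be counted as separate reads. Replicates differed by 16.9 to 92.4 times counting noise (chi-square per gene).

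Values were analysed with limma 3.58.1 (R 4.3.3) with a variance trend on log2(normalized count + 1), age as the only term, two-sided, for genes with a mean of at least 10. EdgeR 4.0.16 and DESeq2 1.42.0 on recovered reads passed 707 and 1369 genes, against 773 with limma. The fit was tested on simulated data. The genes, lists and pairs were chosen with earlier results of these data known. The rule for named genes took the 10 genes, every gene of the 6 pathway lists that passed, the 3 with the smallest p among regulators and among other targets, and 14 fixed genes. Genes outside it are said to be named after their values were seen. Coordinates are given for RefSeq promoters (GRCm38.p6) alone. Alternatives are given in the closing section. The result for 1 gene is not reported here.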

Additional observations from a re-analysis of the deposited data

Results flagged for a closer look

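Of 62 groups of 4 libraries examined (31 genes at 2 ages), 6 had 1 library far from the other 3 by Dixon's ratio of the gap to the range on the log2 scale (past its 95% critical value), and chance gives about 1 group in 20. Ccng2 in old library 4 was the lowest (ratio 0.967), with 1213 normalized counts against 1773 to 1796 in the other old libraries. Trp53 in old library 1 was the highest (0.847), with 2515 against 2218 to 2261. Old library 4 was also the lowest for Psat1 (0.927) and the highest for Pax7 (0.874). The summed level of 7 muscle fibre markers in old library 4 was 23727 normalized counts, against 5704 to 10218 in the other libraries. Its sum for 10 macrophage and leukocyte markers was 4853, against 922 to 2838 in the others. The part of these markers in its outlying values was not tested. Dram1 in young library 1 was the highest (0.955), and Bcl2l1 in old library 3 was the highest (0.851).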

How the results depend on the processing

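Each of the 31 named genes that were tested was recomputed under 21 alternatives, or 20 for Trp63. None of the 11 called genes changed sign, and none kept its call under all of them, since none passed with the mean log2 level of fibroblast and tendon markers as a covariate. That covariate itself differed with age. In that model 3 genes were higher and 0 lower over all genes, with 0 of the 10 genes and 0 genes of the wider lists in either direction, against 2 higher and 6 lower in the wider lists otherwise. Perp and Sesn2 passed under every other alternative, and Ccng2 did not without the variance trend (adjusted p = 0.0878). Without the trend 268 genes were higher and 134 lower, 1 of the 10 genes was lower, and the wider lists had 1 higher and 2 lower. DESeq2 had 768 and 601, 2 of the 10 genes higher, and 5 higher and 11 lower in the wider lists. Sample weights gave 4 higher in the wider lists. Without young library 3 and old library 3 together, 532 genes were higher and 285 lower, and 1 of the 10 genes was lower. Leaving out 1 library at a time gave 212 to 524 genes higher and 118 to 316 lower, 1 to 2 of the 10 genes higher and 1 to 2 lower, and 0 to 4 higher and 2 to 6 lower in the wider lists. Without 1 library the ratio differences, given with no test, ran from 0.44 to 0.60 for Sesn1 over Sesn2, 0.86 to 1.16 for Ccng1 over Ccng2, -1.24 to -0.88 for Bbc3 over Bax and 0.13 to 0.22 for Mdm2 over Trp53.

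Some genes that did not pass changed sign. With the marker covariate Trp53 was at 0.022, Sesn1 at 0.069, Pmaip1 at 0.040, Trp63 at -0.73, Trp53inp1 at 0.23, Bcl2 at -0.14 and Pax7 at -0.10. Mdm2 was at -6.9e-04 with DESeq2 and from -0.0034 (without young library 2) to 0.080 without 1 library, and Sesn1 from -0.16 to 0.031 (without young library 3). Trp63 was at -0.077 under quantile normalization, -0.076 without young library 4 and -0.062 without old library 4, with up to 0.54 without old library 1. Trp53inp1 was at 0.0079 without young library 3 and 0.056 without old library 1, and down to -0.19 without old library 3. The cause was not tested.

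Young and old libraries share numbers in the labels. Same-numbered libraries deviated together with correlations of 0.19, 0.072, 0.30 and -0.042, and 2 of 4 correlated best with their own number. The 2 libraries numbered 3, with the highest correlation, also had the highest endothelial marker sum of their age. These values do not settle whether the numbers are pairs, and the main fit did not take them as pairs. With the replicate number as a block 559 genes were higher and 252 lower, with 1 of the 10 genes higher and 2 lower.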
